A study of Rattus norvegicus with 9 samples.

Results

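The genes described here make, lengthen and desaturate fatty acids. They are Acly and Me1, which supply carbon and NADPH, Acaca and Fasn, which build the fatty acid chain, Srebf1, which encodes the SREBP-1 transcription factor, Scd2, Fads1 and Fads2, which encode desaturases, and Elovl5 and Elovl6, which encode elongases. They were taken by gene symbol from a list of 10, and all 10 were present among the 20645 genes of the deposited table. INS-1E cells, a rat insulinoma line that secretes insulin, were given fatty acid-free BSA (the BSA group), 0.5 mM palmitic acid (the PA group), or 0.5 mM palmitic acid with 50 µM cyanidin-3-O-glucoside, an anthocyanin (the PA + C3G group), each for 24 h. The doses come from the methods of the study. Polyadenylated RNA of 3 replicates per group was sequenced, 9 libraries in all, and every group is the same single cell line without a genetic change. The methods state that experiments were done in biological triplicate, but neither they nor the labels say that the replicates sequenced came from separate cultures, so the p-values below measure the spread between these samples, which may be technical.

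In background terms, palmitic acid is the main product of fatty acid synthase, and cells convert it to longer and less saturated fatty acids by adding carbon units (elongases) and double bonds (desaturases). SREBP-1 is made as a membrane protein of the endoplasmic reticulum. It is escorted to the Golgi by SCAP, cut there by proteases, and then enters the nucleus, where it switches on genes of fatty acid synthesis and desaturation, while INSIG proteins hold it back in the endoplasmic reticulum. In pancreatic beta cells, desaturation of palmitic acid is known as a step that makes it less harmful.

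Expression is given as FPKM, which is fragment numbers corrected for transcript length and for how many fragments the library had mapped. Library totals ran from 45559993 to 66730721 estimated counts. All 10 beta cell marker genes examined, among them Ins1, Pdx1 and Mafa, had a mean of at least 1 FPKM, and their summed level was 48963 to 49675 FPKM with BSA, 22110 to 22624 with PA and 46511 to 52129 with PA + C3G. Ins1 made up most of that sum, with means of 26650, 13744 and 32002 FPKM in the BSA, PA and PA + C3G groups, and single markers differed from it. Ins2 had means of 13778, 1871 and 7008 FPKM and Slc2a2, the glucose transporter, 510, 103 and 172 FPKM in the same order. Chga changed less, with 4213, 3678 and 5232 FPKM. Nkx6-1 did not fall with PA, with 50.0, 52.1 and 76.0 FPKM, while the mean of every other marker of the 10 was lower with PA than with BSA. Of 18 markers of other islet, exocrine, stromal or blood cells, 9 were in the table and only Gcg, the glucagon gene, reached that mean. The summed level of those 9 ranged from 8.98 to 31.7 FPKM with BSA, from 1.98 to 6.79 with PA and from 4.44 to 22.9 with PA + C3G, and the part of either list in the results below was not tested. In bulk RNA, fewer cells of a kind and less RNA per cell cannot be told apart.

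Promoter sequence is shown for Srebf1, Scd2 and Fads1, which rose with PA, and for Acly, which fell. RefSeq windows of build GRCr8, from 250 bases before to 50 bases after a start site, were found for 7 of the 10 genes, in 8 windows, since Srebf1 has 2. The genes without an entry are Fasn, Acaca and Elovl6. The words searched on both strands were CCAAT, the box bound by NF-Y, a factor known to act together with SREBPs, CACGTG, an E-box, and TCACNCCAC, a form of the sterol regulatory element. CCAAT was found in 6 of the 8 windows, in Srebf1, Scd2, Fads1, Acly and Elovl5, against 37.5% of all 33469 windows. CACGTG was found in the Elovl5 window only, against 6.42% of all windows, and TCACNCCAC in 0 of the 8, against 1.12%. The words do not overlap one another in these windows. A match is a description of the letters and not a binding site, and the genome build of the deposited table is not given in the sources used here, so these positions are not set beside those of the table. In the excerpts below, written 5′ to 3′ on the strand of the gene, capitals mark CCAAT or its reverse complement.
Scd2, chr1:253118268-253118339, plus strand: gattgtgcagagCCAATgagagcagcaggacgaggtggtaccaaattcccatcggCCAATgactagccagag
Srebf1, upstream start, chr10:45529317-45529345, minus strand: cctgtggcttccATTGGaccccttgccct
Srebf1, downstream start, chr10:45519102-45519153, minus strand: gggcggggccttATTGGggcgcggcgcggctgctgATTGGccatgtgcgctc
Fads1, chr1:216252559-216252587, plus strand: cactcggctcagCCAATgggagggcgcgc
Acly, chr10:85963686-85963714, minus strand: gaacgcgtgtgcCCAATcgccaggctgca
Scd2, the downstream start of Srebf1 and Elovl5, which was not called with PA, each carry a pair of these boxes, while Fads2, which rose, and Me1 carry none. The Scd2 boxes begin 97 and 54 bases before the start site, and those of Srebf1 131 and 108 bases before it. The single box of Fads1 begins 121 bases and that of Acly 71 bases before the start. Since Acly holds the word as well and its expression fell with PA, the word did not go with one direction among these genes.

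The first comparison, PA with BSA, asked what palmitic acid changed. Srebf1, Scd2 and Fasn rose more than 2-fold, Fads1, Fads2 and Acaca rose less, and Acly fell, while Me1, Elovl5 and Elovl6 did not pass the test. Values were compared with edgeR's quasi-likelihood test on the estimated counts of all 9 libraries, with TMM normalization (a scaling that assumes most genes do not change) and Benjamini-Hochberg adjustment over the 12958 genes with a mean of at least 1 FPKM. All 10 members passed that filter. A gene is called changed at an adjusted p-value under 0.05. Of the 10, 6 were called higher and 1 lower. Among all tested genes 51.0% were called, 25.8% higher and 25.2% lower, so that rises were more frequent among the members than in the background and falls were not. The list was chosen with earlier results of these data known. An excess over the background, here and in the comparisons below, can come from that choice and was not tested. The median log2 fold change of the 10 was 0.27, against 0.00 for all tested genes. By the criterion of the study, a fold change above 2 with an unadjusted p-value under 0.05, 3 members changed, against 7.56% of tested genes. Under the other settings tried the number was 2 to 3. Fasn lay at the 2-fold limit, with a 95% interval of 0.96 to 1.1 on the log2 scale and a lowest value of 0.99 under those settings. The FPKM of the PA and BSA libraries did not overlap for 7 members, against 59.9% of tested genes.

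The second comparison, PA + C3G with PA, asked what the anthocyanin changed in the presence of palmitic acid. Srebf1, Fasn, Scd2 and Acaca fell, by between 0.19 and 0.41 on the log2 scale, and no member rose. The 4 called members are 40.0% of the list, against 21.2% of tested genes called, 11.1% higher and 10.2% lower. The median log2 fold change of the 10 was −0.13. None reached a 2-fold change, against 1.13% of tested genes. The libraries of the groups did not overlap for 6 members, against 39.5% of tested genes. The direction of calls among all genes depends on the scaling. With TMM, 1436 genes were called higher and 1316 lower, whereas bringing all libraries to an equal FPKM sum gave 775 higher and 2525 lower, and limma on log2(FPKM + 1) gave 978 higher and 1570 lower. With the equal FPKM sum Fads1 and Fads2 also passed the test, which made 6 members lower.

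The third comparison, PA + C3G with BSA, asked what difference from the control was left with both agents. Srebf1, Scd2, Fasn, Fads1 and Fads2 were still higher than with BSA, and Acly and Elovl5 were lower. These 7 calls stand against 36.9% of tested genes called, 19.0% higher and 17.9% lower, and the median log2 fold change of the 10 was 0.15, against 0.01 for all tested genes. Only Srebf1 was above a 2-fold change, against 4.63% of tested genes. Libraries did not overlap for 7 members, against 50.3% of tested genes. With TMM, 2462 genes were called higher and 2321 lower, while rescaling to the same FPKM sum gave 1891 and 3038, and limma on log2(FPKM + 1) gave 1822 and 3033. Each pair of comparisons shares a group of libraries, so they are not independent of one another.

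**Figure D1:**
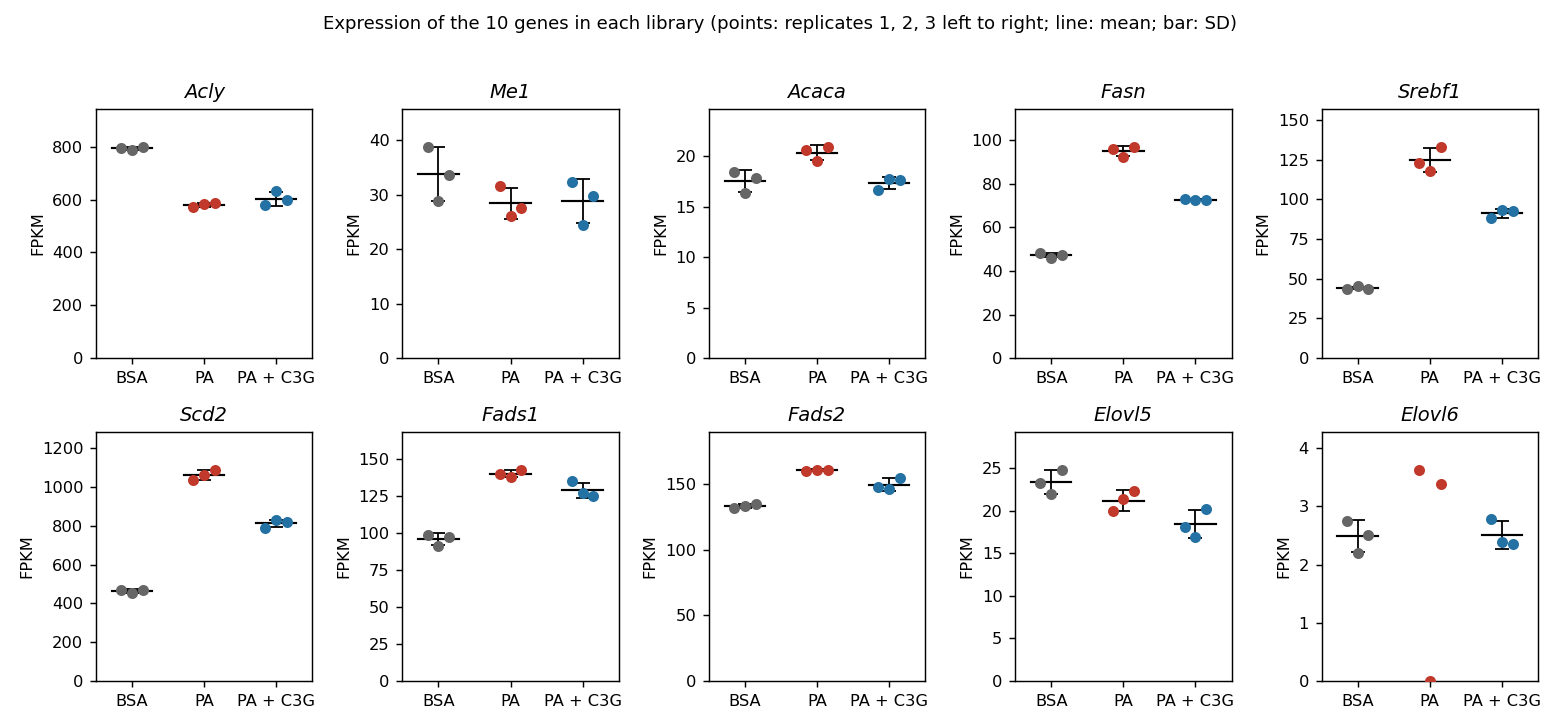
Each panel plots the FPKM of 1 gene in the 9 libraries, as points for replicates 1, 2 and 3 from left to right within the BSA (grey), PA (red) and PA + C3G (blue) groups, with the mean as a line and the SD as a bar, on axes that start at 0. Srebf1, Fasn and Scd2 are lowest with BSA, highest with PA and in between with PA + C3G, Acly is highest with BSA, and 1 PA library lies at 0 for Elovl6, for which no PA mean is drawn.

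Srebf1 (ENSRNOG00000003463) lies on chromosome 10 from 46570996 to 46593009 on the minus strand, in the coordinates of the deposited table, as do the positions that follow. It is the control gene of the list and the member that rose most with PA. Its FPKM was 43.7, 45.2 and 43.6 in the 3 BSA libraries, 123, 118 and 133 with PA, and 88.1, 93.2 and 92.5 with PA + C3G. The groups did not overlap, and every PA + C3G library lay between the other two groups. Its log2 fold change was 1.52 with PA against BSA (SE, the standard error, 0.05 and edgeR's adjusted p = 2.13e-08) and −0.41 with PA + C3G against PA (SE 0.04 and adjusted p = 4.01e-04). With both agents it remained 1.11 above BSA on the log2 scale (95% interval 1.01 to 1.21), a 2.15-fold difference. The counts do not separate the transcripts that start at its alternative promoters, nor do they measure the cut, nuclear form of the protein.

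Acly and Me1 supply the pathway. Acly (ENSRNOG00000016924; chromosome 10, 88392248 to 88442845) encodes ATP citrate lyase, which splits citrate into acetyl-CoA in the cytosol. It had the second highest mean level of the list and moved against the synthesis genes it feeds. Its FPKM was 796, 788 and 800 with BSA, 571, 585 and 586 with PA, and 580, 632 and 599 with PA + C3G. All 3 PA libraries were below all 3 BSA libraries, and the PA and PA + C3G libraries overlapped. The log2 fold change was −0.43 with PA against BSA (SE 0.04 and edgeR adjusted p = 6.69e-06). It was 0.09 with PA + C3G against PA (95% interval 0.01 to 0.17, adjusted p = 0.0927 from edgeR) and −0.34 with PA + C3G against BSA (adjusted p = 6.18e-05).

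Me1 (ENSRNOG00000009715; chromosome 8, 94256839 to 94368834) encodes the cytosolic malic enzyme, a source of NADPH for chain building. Its FPKM was 38.8, 28.9 and 33.7 with BSA, 31.6, 26.1 and 27.5 with PA, and 32.4, 24.5 and 29.7 with PA + C3G. The groups overlapped, and within each group replicate 1 was highest and replicate 2 lowest. Its fitted log2 fold change was −0.23 with PA against BSA (95% interval −0.51 to 0.06, adjusted p = 0.162 from edgeR) and 0.06 with PA + C3G against PA (95% interval −0.22 to 0.34), and neither passed the test.

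Acaca and Fasn carry out the synthesis itself. Fasn (ENSRNOG00000045636; chromosome 10, 109987735 to 110005901) encodes fatty acid synthase, which assembles palmitic acid from malonyl-CoA. Its FPKM was 48.4, 46.2 and 47.4 with BSA, 96.1, 92.3 and 97.0 with PA, and 72.9, 72.8 and 72.5 with PA + C3G. The 3 groups were fully separated, with a spread among the PA + C3G libraries of 0.195 FPKM (SD, n = 3). Fasn was 2.04-fold higher with PA than with BSA (log2 fold change 1.03, SE 0.03 and edgeR adjusted p = 2.29e-08). It was 1.27-fold lower with PA + C3G than with PA (log2 fold change −0.35, SE 0.03 and adjusted p = 1.87e-04) and stayed 1.60-fold above BSA.

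Acaca (ENSRNOG00000034013; chromosome 10, 71536533 to 71719910) encodes acetyl-CoA carboxylase alpha, which makes malonyl-CoA and sets the pace of the pathway. It moved far less than Fasn. Its FPKM was 18.4, 16.3 and 17.8 with BSA, 20.6, 19.5 and 20.9 with PA, and 16.6, 17.7 and 17.6 with PA + C3G. The PA libraries lay above all others, and the PA + C3G libraries overlapped those of BSA. The fitted log2 fold change was 0.24 with PA against BSA (SE 0.05 and edgeR adjusted p = 0.00321) and −0.19 with PA + C3G against PA (SE 0.05 and adjusted p = 0.0238). The latter call was lost when PA replicate 1, PA replicate 3, PA + C3G replicate 1 or PA + C3G replicate 3 was left out, with adjusted p-values of 0.0689, 0.0857, 0.0746 and 0.0547 from edgeR. With PA + C3G against BSA the log2 fold change was 0.04 (95% interval −0.07 to 0.16).

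**Figure D2:**
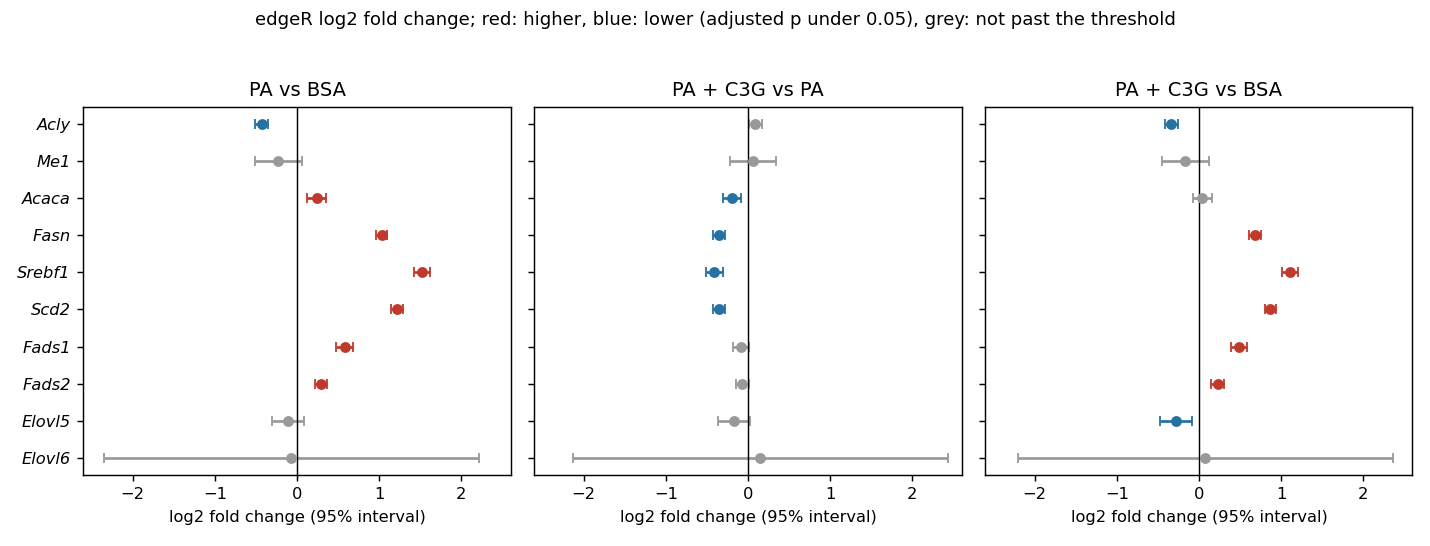
The log2 fold change of each member from edgeR, with its 95% interval as a bar, is plotted in 1 panel per comparison, in red where called higher, in blue where called lower and in grey otherwise. Srebf1 at 1.52, Scd2 at 1.22 and Fasn at 1.03 stand to the right with PA against BSA, the 4 called members stand to the left with PA + C3G against PA, and Elovl6 has the widest intervals.

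The desaturases put double bonds into fatty acids. Scd2 (ENSRNOG00000046005; chromosome 1, 264059374 to 264072433) encodes a stearoyl-CoA desaturase, which turns saturated into monounsaturated fatty acids, and had the highest mean level of the list, 780 FPKM over the 9 libraries. Its FPKM was 469, 453 and 471 with BSA, 1037, 1060 and 1090 with PA, and 790, 828 and 820 with PA + C3G. As for Fasn and Srebf1, the groups were fully separated, with PA + C3G between the others. Scd2 was 2.33-fold higher with PA than with BSA (log2 fold change 1.22, SE 0.03 and edgeR adjusted p = 1.13e-08), 1.27-fold lower with PA + C3G than with PA (adjusted p = 1.87e-04), and 1.83-fold above BSA with both agents. The closely related Scd and Scd4, with which reads could be shared, were at most 0.342 and 0.977 FPKM in any library, and the Scd2 level was at least 2375 times that of Scd in every library.

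Fads1 (ENSRNOG00000020480; chromosome 1, 226234074 to 226249138) and Fads2 (ENSRNOG00000020440; chromosome 1, 226114413 to 226152524), neighbours in the genome, encode the delta-5 and delta-6 desaturases that make polyunsaturated fatty acids. Both rose with PA, Fads1 more than Fads2. The FPKM of Fads1 was 98.7, 91.1 and 97.5 with BSA, 140, 138 and 143 with PA, and 135, 127 and 125 with PA + C3G. That of Fads2 was 132, 133 and 135 with BSA, 160, 161 and 161 with PA, and 148, 146 and 155 with PA + C3G. For both genes the 3 groups did not overlap. The log2 fold change with PA against BSA was 0.58 for Fads1 (SE 0.04 and edgeR adjusted p = 4.00e-06) and 0.29 for Fads2 (SE 0.03 and adjusted p = 5.29e-05). With PA + C3G against PA it was −0.09 for Fads1 (95% interval −0.18 to 0.01, adjusted p = 0.204 from edgeR) and −0.07 for Fads2 (95% interval −0.14 to 0.01, adjusted p = 0.191), and neither passed the test with TMM scaling. Relative to BSA, Fads1 remained higher by 0.49 and Fads2 by 0.23 on the log2 scale.

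Elovl5 and Elovl6 add carbon units to existing chains. Elovl5 (ENSRNOG00000006331; chromosome 8, 85259982 to 85285983) encodes an elongase of polyunsaturated fatty acids. Its FPKM was 23.2, 22.0 and 24.8 with BSA, 19.9, 21.3 and 22.3 with PA, and 18.1, 16.9 and 20.2 with PA + C3G. The PA libraries overlapped both other groups, whereas the PA + C3G libraries were all below those of BSA. Its fitted log2 fold change was −0.11 with PA against BSA (95% interval −0.31 to 0.08) and −0.17 with PA + C3G against PA (95% interval −0.36 to 0.03). With PA + C3G against BSA it was −0.28 (adjusted p = 0.0277 from edgeR), a call that was lost without BSA replicate 1 (adjusted p = 0.0570), BSA replicate 3 (0.0945), PA + C3G replicate 1 (0.0640) or PA + C3G replicate 2 (0.0820).

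Elovl6 (ENSRNOG00000010468; chromosome 2, 234189105 to 234296145), listed in the table as a gene similar to Elovl6, stands for the elongase that takes palmitic acid itself to stearic acid. It had the lowest level of the list and its result rests on 1 library. Its FPKM was 2.75, 2.20 and 2.51 with BSA, 3.63, 0 and 3.39 with PA, and 2.79, 2.38 and 2.35 with PA + C3G. PA replicate 2 was listed at 0, while the other 8 libraries held between 125 and 276 estimated counts. In the table, 39 genes were at 0 in exactly 1 library and at 100 counts or more in the other 8, and 7 of these zeros were in PA replicate 2, and a 0 of this kind can be a failed estimate. With that library the log2 fold change with PA against BSA was −0.07 (95% interval −2.35 to 2.21). Without it the change was 0.52 (SE 0.18 and edgeR adjusted p = 0.0409), with both remaining PA libraries above all others, and with PA + C3G against PA it was −0.44 (adjusted p = 0.134).

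Some ratios of members within a library did not depend on the scaling between libraries. The Acly level divided by the Fasn level was 16.4, 17.1 and 16.9 with BSA, 5.94, 6.34 and 6.04 with PA, and 7.95, 8.69 and 8.26 with PA + C3G. The groups did not overlap in any of the 3 comparisons (two-sided exact permutation p = 0.1, which is the minimum for 3 libraries against 3). The Fads1 level divided by the Fads2 level was 0.719 ± 0.0335 with BSA, 0.875 ± 0.0156 with PA and 0.864 ± 0.0541 with PA + C3G (mean ± SD, 3 libraries each). It was higher with PA than with BSA in all 3 libraries (two-sided exact permutation p = 0.1) and overlapped between PA and PA + C3G (two-sided exact permutation p = 0.8).

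**Figure D3:**
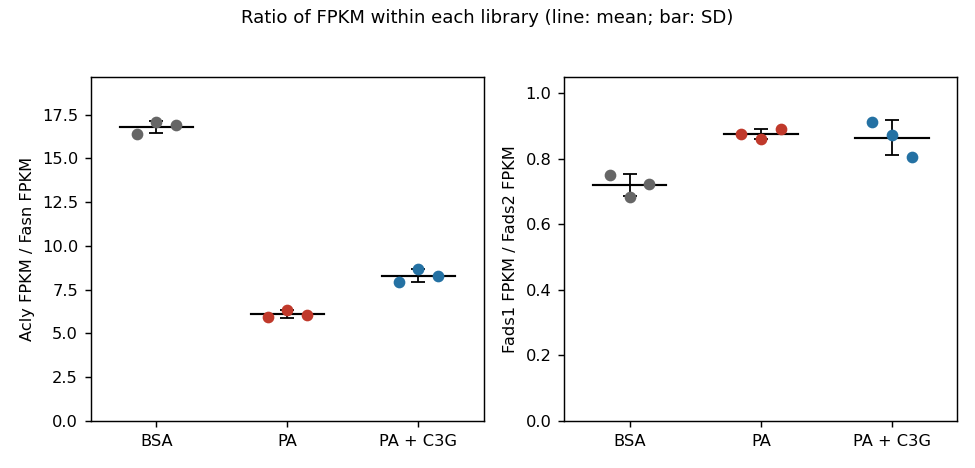
The left panel plots the Acly FPKM divided by the Fasn FPKM and the right panel the Fads1 FPKM divided by the Fads2 FPKM in each library, with the group mean as a line and the SD as a bar, on axes that start at 0. The Acly ratio is near 16.8 with BSA and near 6.11 with PA, and the PA and PA + C3G points of the Fads1 ratio overlap.

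How much of the PA difference was left with C3G varied among the members. In mean FPKM, Srebf1 stood 80.3 above BSA with PA and 47.1 above it with PA + C3G, which is 58.6% of the difference. The share left was 58.3% for Scd2, 53.1% for Fasn and 59.7% for Fads2, and it was 74.4% for Fads1. For Acaca nothing of the rise in mean FPKM was left, since it stood 2.79 FPKM above BSA with PA and −0.207 from it with PA + C3G. For Acly, whose level fell, 89.2% of the fall was left. These shares use the same BSA libraries in both terms and were not tested against one another. They also use FPKM without TMM scaling and depend on the scaling. In the TMM fits Fads2 was 22.6% above BSA with PA and 17.1% above it with PA + C3G. Acaca was 17.9% and 3.1% above BSA in the same fits.

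The genes whose profile over the 9 libraries lay nearest to that of 3 members were sought among all tested genes by the root mean square difference of log2(FPKM + 1), each gene centred on its own mean. For Fasn they included Gne, at a difference of 0.029, and Naglu. For Srebf1 they were Saraf, at 0.066, Smim14 and Slc6a17, and for Scd2 they were Sel1l, at 0.043, Tmed9 and Rragd. Sel1l, for example, had means of 43.0, 99.0 and 76.4 FPKM with BSA, PA and PA + C3G. Among the members, Fasn was the nearest to Scd2, at rank 30 of all tested genes, and Srebf1 was at rank 69. Acly was at rank 10991.

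Other genes of fatty acid metabolism were described from a list of 42 genes, of which 37 were in the table and 32 passed the filter. With PA, 11 were called higher and 5 lower than with BSA, 50.0% in all against 51.0% of tested genes, of which 25.8% were higher and 25.2% lower, and the median log2 fold change of the list was 0.11. With PA + C3G against PA, 3 were higher and 4 lower, 21.9% against 21.2% of tested genes. With PA + C3G against BSA, 12 were higher and 3 lower, 46.9% against 36.9% of tested genes, of which 19.0% were higher and 17.9% lower. The share of calls was thus near the background in the first 2 comparisons, while higher calls outnumbered lower ones in both comparisons with BSA.

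Within the list, the genes that control SREBP showed the largest single rise. Insig1, which retains SREBPs in the endoplasmic reticulum and is itself known as an SREBP target, was at 68.6, 69.7 and 74.4 FPKM with BSA, 219, 216 and 232 with PA, and 145, 138 and 145 with PA + C3G. Its groups were fully separated. The fitted log2 fold change was 1.67 with PA against BSA (adjusted p = 1.13e-08 from edgeR) and 1.07 with PA + C3G against BSA. Srebf2, which encodes the SREBP known for cholesterol synthesis, rose by 0.47 with PA, and Nr1h2, the liver X receptor beta, by 0.40. Both fell with PA + C3G against PA, by 0.18 and 0.17 on the log2 scale. Nr1h2 lost that call without PA replicate 3 or PA + C3G replicate 1 (adjusted p = 0.0677 and 0.0521 from edgeR). Of the 8 control genes tested, 4 were higher with PA, 50.0% called against 51.0% of tested genes, 25.8% higher. The fourth was Scap by 0.16 (adjusted p = 0.0489 from edgeR), which kept the call under 7 of 19 alternatives. Insig2, Mbtps1, Mbtps2 and Mlx had log2 fold changes between 0.05 and 0.25 that did not pass the test.

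Of 5 tested genes for the supply of carbon and NADPH, 4 were higher with PA (80.0%), against 25.8% of tested genes called higher. All 5 were higher with PA + C3G than with BSA, against 19.0% of tested genes called higher, and some of these calls were fragile, as given below. Acss2, which makes acetyl-CoA from acetate, rose from 15.6 to 29.8 mean FPKM with PA (log2 fold change 0.96, adjusted p = 3.98e-06 from edgeR) and was at 21.6 with PA + C3G, lower than with PA by 0.43 (adjusted p = 0.00340). Idh1, the cytosolic isocitrate dehydrogenase, rose by 0.50 and Slc25a1, the mitochondrial citrate carrier, by 0.18 on the log2 scale. The Slc25a1 call was lost without PA replicate 1 (adjusted p = 0.0534 from edgeR). Its call with PA + C3G against BSA was kept under 14 of 19 alternatives. That call was lost without BSA replicate 1 or PA + C3G replicate 1 (0.0529 and 0.0502 from edgeR) and with an equal FPKM sum (0.0521). It was also lost with limma on log2(FPKM + 1) and log2(FPKM + 0.1) (0.101 and 0.104). Mid1ip1, an activator of acetyl-CoA carboxylase, was −0.05 with PA and rose by 0.23 with PA + C3G against PA (adjusted p = 0.0113 from edgeR), a call that was lost with an equal FPKM sum (0.14, adjusted p = 0.0623) and with limma on log2(FPKM + 0.1) (adjusted p = 0.0531). Its call with PA + C3G against BSA was kept under 12 of 19 alternatives and was lost with an equal FPKM sum (adjusted p = 0.0785), with limma on log2(FPKM + 1) and log2(FPKM + 0.1) (0.138 and 0.143), and without any 1 of BSA replicates 1 and 2 and PA + C3G replicates 1 and 3, with adjusted p-values from edgeR between 0.0526 and 0.0674. Acss2, Idh1 and Slc25a1 went up with PA where Acly went down. Acacb, the mitochondrial carboxylase isoform, was below the filter, with means of 0.165, 0.498 and 0.241 FPKM in the BSA, PA and PA + C3G groups.

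Of 3 other desaturation genes tested, Cyb5a and Fads3 were lower with PA, against 25.2% of tested genes called lower. Both were higher with PA + C3G than with PA alone, against 11.1% of tested genes called higher, and Cyb5r3 passed neither test. Cyb5a, which encodes cytochrome b5, an electron donor of stearoyl-CoA desaturases, was at 103, 120 and 100 FPKM with BSA, 63.9, 58.9 and 58.2 with PA, and 80.3, 79.4 and 85.4 with PA + C3G. Its groups did not overlap. Its log2 fold change was −0.81 with PA against BSA (adjusted p = 1.13e-05 from edgeR) and 0.47 with PA + C3G against PA (adjusted p = 0.00208). Fads3, a relative of Fads1 and Fads2 in the same stretch of chromosome 1, fell with PA by 0.86 and rose with PA + C3G over PA by 0.71 (adjusted p = 9.93e-04 from edgeR). Cyb5r3, the reductase that feeds cytochrome b5, was at 0.09 with PA against BSA (95% interval −0.09 to 0.28) and passed only without BSA replicate 2 (0.19, adjusted p = 0.0149 from edgeR).

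Of 9 tested genes of the elongation cycle, 2 were higher and 1 lower with PA, 33.3% against 51.0% of tested genes. With PA + C3G against BSA, 3 were higher and 1 lower, 44.4% against 36.9%. None passed the test with PA + C3G against PA, where 21.2% of tested genes were called. Elovl2, an elongase of polyunsaturated fatty acids, fell from 18.3 to 13.6 mean FPKM (log2 fold change −0.40, adjusted p = 1.33e-04 from edgeR), and Hacd1, a dehydratase of the cycle, rose from 2.83 to 5.61 (log2 fold change 1.01, adjusted p = 0.00202). Hsd17b12, the ketoacyl reductase, rose by 0.22. Tecr, the last reductase of the cycle, was at 0.12 with PA against BSA (95% interval −0.02 to 0.25) and passed only without PA replicate 2 (0.18, adjusted p = 0.0218 from edgeR). With PA + C3G against BSA it was called higher (0.21, adjusted p = 0.0272 from edgeR), a call kept under 12 of 19 alternatives. Hacd3, another dehydratase, was also called higher there (0.14, adjusted p = 0.041 from edgeR) and kept its call under only 2 of 19. The separate mitochondrial pathway of fatty acid synthesis had 7 genes tested, of which 42.9% were called with PA, against 51.0% of tested genes. Acsf3 was higher by 0.35 with PA, and Ndufab1 and Mecr were lower by 0.43 and 0.39. None of the 7 passed the test with PA + C3G against PA, against 21.2% of tested genes, and so few genes give little weight to that difference. In that comparison Cbr4 was at −0.28 (95% interval −0.58 to 0.02). Hsd17b8 was at −0.26 with PA against BSA (adjusted p = 0.0603 from edgeR), which passed without BSA replicate 1 or PA replicate 3 (0.0295 and 0.0167). With all libraries it passed in DESeq2 (adjusted p = 0.0239) and in limma on log2(FPKM + 1) (adjusted p = 0.0497).

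**Figure D4:**
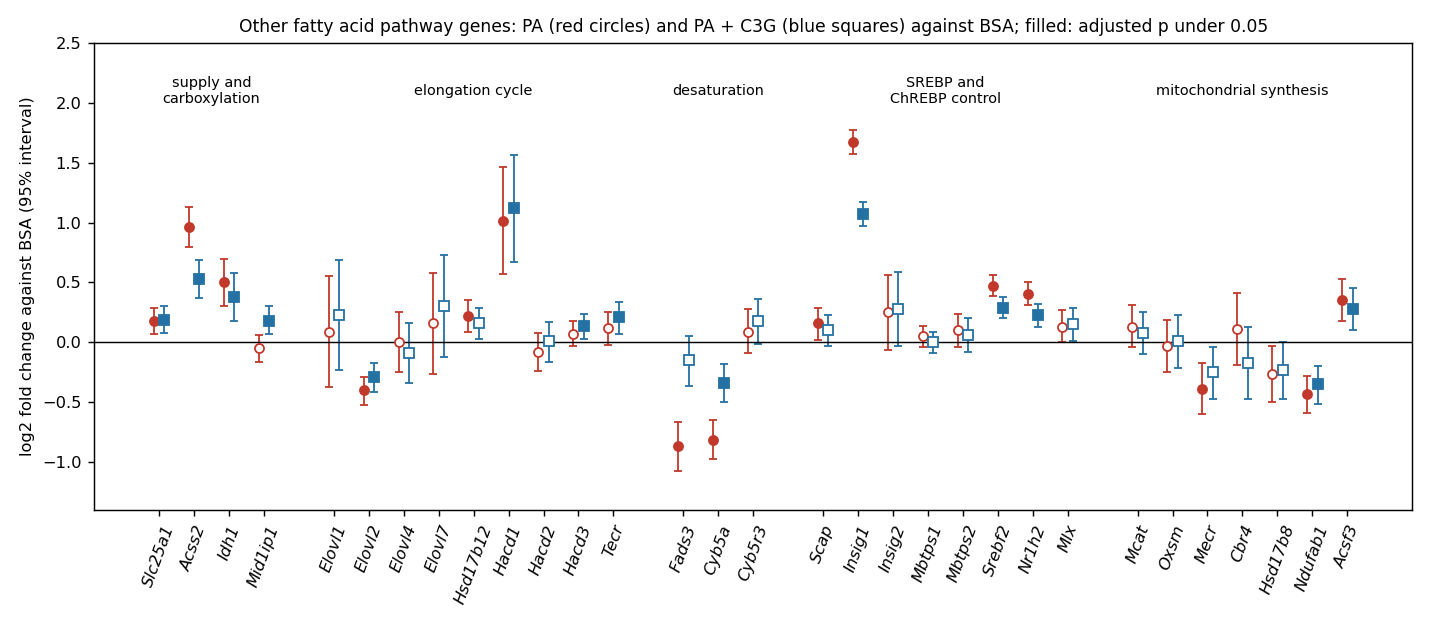
The log2 fold change against BSA of the other pathway genes tested, less 1 that is not reported, is plotted on the vertical axis for PA (red circles) and PA + C3G (blue squares), with 95% intervals as bars and filled symbols for an adjusted p-value under 0.05, in 5 groups from left to right. Insig1 is highest with PA at 1.67, Hacd1 at 1.12 and Insig1 at 1.07 are highest with PA + C3G, and Fads3 and Cyb5a are lowest with PA.

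The KEGG annotation of the deposited table groups the pathway differently and includes members. Its fatty acid biosynthesis pathway had 10 tested genes, 6 higher and 1 lower with PA, and 4 lower with PA + C3G against PA. Of 23 tested genes in biosynthesis of unsaturated fatty acids, 12 were higher and 1 lower with PA (56.5%), and their median was 0.16 on the log2 scale. Of 25 in fatty acid elongation, which in KEGG also holds thioesterases and mitochondrial enzymes, 8 were higher and 4 lower, with a median of 0.12. The share called in it, 48.0%, was near that of all tested genes. With PA + C3G against PA the medians of these 3 pathways were −0.12, −0.06 and 0.06, in the order given.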

How the data were processed

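RNA of INS-1E cells was sequenced in paired-end mode in 9 libraries, 3 per group. The submitters' processing notes name cutadapt 1.9, HISAT2 2.0.4, StringTie 1.3.4d, DESeq2 and edgeR. The genome build is not given in the sources used here. The authors deposited estimated counts per gene, which are not normalized, and FPKM, which is scaled to transcript length and mapped fragments. The totals were 45559993 to 66730721 estimated counts per library. Reads shared between related genes, such as Scd2 with Scd or Fads1 with Fads2, are divided by the authors' assembly step and cannot be checked from the table.

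From the counts, edgeR 4.0.16 (R 4.3.3) gave quasi-likelihood tests with TMM scaling over all 9 libraries, without covariates, on the 12958 genes whose FPKM averaged 1 or more. Standard errors were taken as the absolute log2 fold change divided by the square root of the F statistic. Exact permutation tests were used for ratios. The other settings tried were median-ratio scaling, DESeq2 1.42.0, rescaling to the same FPKM sum, limma 3.58.1 on log2(FPKM + 1) and log2(FPKM + 0.1), no filter, a filter at an average of 5 FPKM, the compared groups alone, a replicate block, counts divided by 4, and each library left out.

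The members and lists were chosen with earlier results of these data known. All members are named, and of each other group up to 4 genes with the smallest p-value in PA versus BSA and up to 2 in PA + C3G versus PA. Acacb, Scd, Scd4, Hacd3 and the marker genes were among those named outside that rule. Pgd, Elovl3, Hacd4, Scd1 and Mlxipl were listed but are not analysed here. Some genes that the naming rule picked are counted but not reported here by name. Comparison of proteins was planned and not made, as no protein sequences were used here. On simulated counts for PA versus BSA with 200 of 12958 genes changed, 78% of 2-fold and 46% of 1.5-fold changes were recovered, with 8 false calls of 132. In the data far more genes were called with PA, 51.0% of those tested, so these rates need not hold there. No library was a duplicate of another in its group, and libraries of different groups were not compared in this way.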

Additional observations from a re-analysis of the deposited data

How the results depend on the processing

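Of 567 values of the 10 members under alternatives, 553 kept their side of the threshold, and the cause of the exceptions was not tested unless given. The 553 include values that changed sign but were not called in either setting. For example, Elovl6 in PA + C3G versus PA went from 0.15 to −0.44 without PA replicate 2. Srebf1, Scd2, Fasn, Fads1, Fads2, Acaca and Acly kept their calls in PA versus BSA under all alternatives run. The change of Elovl6 in PA versus BSA turned from −0.07 to 0.52 without PA replicate 2, the library listed at 0, and ranged from −0.55 to 0.52 with 1 library left out. In PA + C3G versus PA, rescaling to the same FPKM sum brought Fads1 (−0.18) and Fads2 (−0.15) past the threshold and moved the median of all genes to −0.09. With 1 library left out, Acaca in that comparison lay between −0.22 and −0.17, and Elovl5 in PA + C3G versus BSA between −0.36 and −0.23. The number of members called ranged from 7 to 8, 3 to 6 and 6 to 8 in the 3 comparisons in the order given above, and the number of tested genes called in PA + C3G versus PA from 1718 without PA replicate 3 to 2838 with 1 library left out. With the filter at a mean of 5 FPKM Elovl6 was not tested.

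The groups share replicate numbers. Across genes, deviations from the group means had correlations between same-numbered libraries from −0.0918 to 0.0796. With PA + C3G against PA each library was closest to its own number (0.0796, 0.0254 and 0.0585). In the other comparisons not every library was. Correlations this low over all genes cannot decide whether the numbers pair the samples. A replicate block gave 6843, 3118 and 5058 tested genes called, against 6614, 2752 and 4783 without it. The block brought Me1 in PA versus BSA (−0.22) and in PA + C3G versus BSA (−0.16) and Acly in PA + C3G versus PA (0.09) past the threshold.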

Other observations

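The glucagon gene Gcg was at 31.2, 8.28 and 22.1 FPKM in BSA replicates 1, 2 and 3, at 6.02, 1.35 and 3.35 with PA, and at 22.5, 4.17 and 13.2 with PA + C3G. Replicate 1 was highest and replicate 2 lowest in each group, which is the order also seen for Me1. Elovl7 had the same order, with 33.1, 26.4 and 29.8 FPKM with BSA, 39.1, 26.5 and 32.8 with PA and 41.6, 25.7 and 38.5 with PA + C3G. The elongase Elovl1 had another order, with replicate 3 highest with BSA and with PA + C3G, at 31.1 and 37.4 FPKM. These genes were chosen after their values were seen.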
